A study of Mus musculus with 15 samples.

Results

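The transcripts described here are the noncoding RefSeq transcripts (accessions that start with NR_) that were measurable in mouse kidney. They were selected on their signal: an array probe had to carry an NR_ accession and to be well above background, by the scanner software's own test, on all 15 arrays. Of 1067 genes with an NR_ probe, 379 (35.5%) satisfied this, against 13199 of 19651 genes (67.2%) with a protein-coding NM_ accession. The kidneys came from male C57/BJ mice in 4 groups. At 6 weeks of age the mice had either a uninephrectomy (UNX), in which the left kidney was taken out, or a sham operation in which the kidney was handled and left in place. Afterwards they ate a high-fat diet (HFD) or the control chow, labelled low fat (LFD), until the kidneys were harvested 20 weeks later. The arrays were 4 LFD sham, 4 LFD UNX, 3 HFD sham and 4 HFD UNX, each from 1 mouse of the 6 that the labels give per group. Diet, surgery and their combination are the comparisons the design implies. Signals are given as log2 of the processed intensity relative to each array's 75th percentile, so 0 marks a probe at that percentile.

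NR_ transcripts are a mixed class. Long noncoding RNAs (lncRNAs) include nuclear scaffolds, antisense transcripts that start beside or run across a coding gene, and host transcripts whose introns carry small nucleolar RNAs (snoRNAs) or microRNAs. Structural RNAs such as ribosomal RNA, spliceosomal small nuclear RNAs and the RNA of RNase MRP work inside protein complexes, and transcribed pseudogenes are copies of coding genes that no longer make the parent's protein. In kidney, as in other tissues, most lncRNAs are far less abundant than messenger RNAs, and many are restricted to a few cell types. A whole-kidney measurement sums all cell types, so fewer cells of a type and less RNA per cell cannot be told apart.

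Some members are precursors of microRNAs, and these show what the host transcript can yield. The spans of 7 of the 208 members with a promoter and strand record in RefSeq (3.37%) held a microRNA hairpin on their own strand, against 6 of 433 other NR_ genes (1.39%). The mature sequences, from RefSeq with GRCm38.p6 coordinates, are printed 5′ to 3′ with the seed (bases 2 to 8) in capitals, because the seed sets which messenger RNAs a microRNA pairs with. Dleu2 holds miR-16 at chr14:61631936-61631957 (minus strand), Mir22hg holds miR-22, Mir17hg holds miR-92a and Ftx, an X-linked lncRNA, holds miR-374b. D7Ertd143e holds a cluster that includes miR-294 and miR-295, which share the seed AAGUGCU.
mmu-miR-16-5p: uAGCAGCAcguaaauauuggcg
mmu-miR-22-3p: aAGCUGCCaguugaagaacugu
mmu-miR-92a-3p: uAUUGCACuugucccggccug
mmu-miR-374b-5p: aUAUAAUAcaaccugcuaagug
mmu-miR-294-3p: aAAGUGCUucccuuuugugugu
mmu-miR-295-3p: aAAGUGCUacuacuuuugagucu

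The array carried 1216 NR_ probes, of which 439 were well above background on every array, and the brightest such probe stood for each gene. Of the 379 members, 345 matched a current RefSeq symbol and 34 are known here by accession only. RefSeq classed 241 members as lncRNA (of 786 such genes with an NR_ probe), 83 as transcribed pseudogenes (of 188), 4 as small nuclear RNAs, 2 as ribosomal RNAs, 2 as snoRNAs, 1 as RNase MRP RNA and 1 as antisense RNA. The other 11 named members (among them Zfp672, Bmp1, Prmt6, Bcor, Ccl25 and Rreb1) are now classed as protein-coding. What their NR_ probe reads was not tested. For Bmp1, a secreted protease that processes collagen, picked after its values were seen, the NR_ probe differed by 0.22 and 0.30 (log2, high-fat minus low-fat, sham and UNX) where the NM_ probe of the same gene differed by 1.95 and 2.25. These 11 are therefore not counted among noncoding genes in any statement by class. They remain in the counts over all members.

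**Figure D1:**
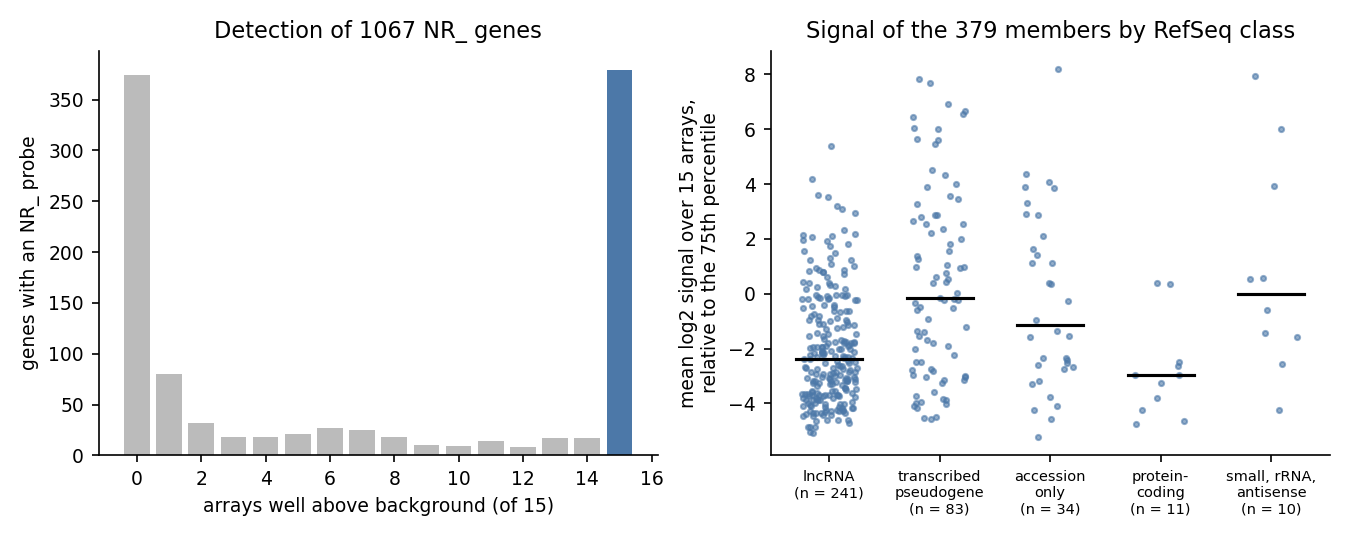
Left, bars count the 1067 genes with an NR_ probe by the number of arrays (0 to 15) on which it was well above background; 374 were above on none and 379 on all 15 (blue). Right, each point is 1 member's mean log2 signal over 15 arrays relative to the 75th percentile, by RefSeq class, with the class median as a line; lncRNAs reach from near -5 to Neat1 at 5.38.

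Most NR_ genes were detected on all arrays or on none. Of the 1067, 374 were above background on no array and 17 were above on 14. The dimmest members were NR_015553 at -5.22, 4930515G01Rik at -5.07 and R74862 at -5.04 (mean log2 signal over the 15 arrays). Just outside were Klk1b7-ps at -4.10 and Terc, the template RNA of telomerase, at -5.01. A transcript that dropped below background in any group could not be a member, so differences that switch a transcript off are missing by construction.

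The brightest members were structural RNAs and pseudogenes. NR_003278 had the highest mean log2 signal (8.19), followed by Rn4.5s, a small rodent RNA, at 7.94, and the pseudogenes Gm5523 at 7.81, Gm12070 at 7.67, Gm8709 at 6.91, Gm8580 at 6.66, Gm6548 at 6.54, Gm6981 at 6.45 and Gm6498 at 6.06. Rn28s1, the 28S ribosomal RNA, stood at 6.02, and Gm10653, Gm15772, Gm5766 and Gm5069 lay between 5.47 and 6.00. Pseudogene probes can bind the messenger RNA of the parent gene, and the probe sequences were not used here, so each of these levels may include the parent. Neat1, the lncRNA around which nuclear paraspeckles assemble, was the brightest member classed as lncRNA among these 15, at 5.38. Different probes bind with different strength, and this order is of signals and not of abundance.

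Several features of the 15 arrays bear on the comparisons. The share of spots well above background was 60.5% to 65.6% on the low-fat arrays and 65.7% to 73.4% on the high-fat arrays. Each low-fat group filled a slide of its own, the high-fat arrays lay on slides 1 and 2 with both surgeries on each, and the diets were scanned on different days, so diet and scan day, and low-fat surgery and slide, cannot be told apart. All 10 kidney markers were above background on every array. Xist was above background on 0 arrays while Ddx3y and Eif2s3y were above on all 15. Of the 5 muscle markers, Ckm and Mylpf were above background on 0 arrays, Myh4 on 1, Tnnt3 on 4 and Acta1 on all 15. The summed linear signal of 8 lymphocyte markers was 1.82 to 2.13 on the low-fat arrays and 2.42 to 4.16 on the high-fat arrays, with 1 of the 8 below background throughout each low-fat group and 0 of the 8 throughout the high-fat groups. The sum of 7 adipocyte markers was 15.8 to 30.5 in LFD sham, 8.79 to 19.9 in LFD UNX, 6.95 to 18.3 in HFD sham and 9.04 to 20.6 in HFD UNX. The part of these differences in the results on diet was not tested.

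HFD sham replicate 3 stood apart in the members. Their median log2 signal was -2.26 there and -2.10 to -1.94 on the other 14 arrays, while the median of all 16109 features was -0.65 there and -0.71 to -0.65 on the others. Structural RNAs were among the low values on that array. Rn28s1 was at 4.62 against 6.49 and 6.36 in the other HFD sham kidneys, and NR_003280, picked after its values were seen, was at 0.07 against 2.79 to 5.98 on the remaining 14 arrays. Where a named member's sham call ends, or a list's calls move, without this array, the value without it stands beside the result.

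In mice with both kidneys, 44 of the 379 members differed between diets at an adjusted p under 0.05 (limma, Benjamini-Hochberg over all 16109 features), 12 higher and 32 lower on the high-fat diet. That is 11.6% of the members, beside 13.9% of all features. Among called members the largest increase was in Serpina3h, a pseudogene of the acute-phase serpin family, and the largest decrease in the lncRNA 3930402G23Rik. The median member difference was -0.12 (log2), beside -0.02 for all features. Without HFD sham replicate 3 it was -0.04 and 50 members were called, 25 in each direction, and without LFD sham replicate 3 28 were called. With background correction by normexp 5 were called, 0 higher and 5 lower, and with slide as a random block 0 were (50 at an unadjusted p under 0.05).

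In mice with 1 kidney, 57 members differed between diets (adjusted p under 0.05, limma), 29 higher and 28 lower on the high-fat diet. This was 15.04% of the members, beside 14.2% of all features, and the median member difference was -0.00 beside -0.01. The share of calls that were higher was 50.9% for members, 54.1% for all features and 44.7% for NM_ features well above background on all 15 arrays. Among called members Serpina3h and Gm12298, an lncRNA, rose most, and Znf41-ps, a zinc-finger pseudogene, and Gm10638, an lncRNA, fell most. The normexp correction left 6 calls, 2 higher (9330159M07Rik and Gm3219) and 4 lower (1810019D21Rik, 6820431F20Rik, Dleu2 and Gm10638). Slide as a random block left 1, Gm3219 (52 at an unadjusted p under 0.05, limma). Without LFD UNX replicates 1, 2, 3 or 4 in turn 31, 36, 34 and 35 members were called, and without HFD UNX replicate 2 35 were. Under normexp the median called member kept 0.897 of its difference in sham mice and 0.662 in UNX mice.

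**Figure D2:**
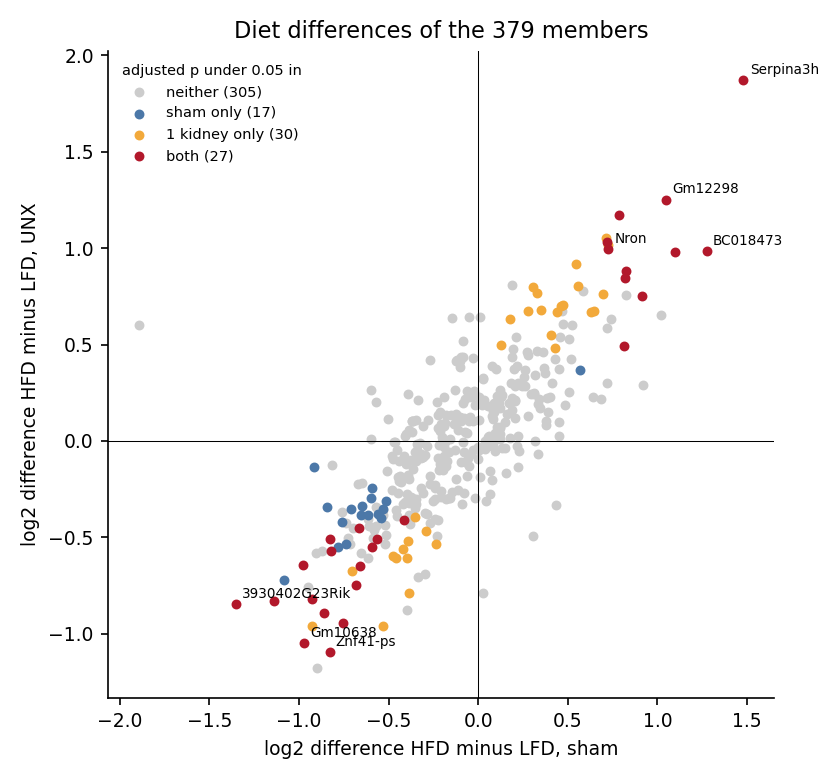
Each point is 1 of the 379 members, with its log2 difference between high-fat and low-fat diet in sham mice on the horizontal axis and in mice with 1 kidney on the vertical axis, coloured by the comparison in which its adjusted p was under 0.05. Red points (27, called in both) all lie in the upper right (11) or lower left (16), with Serpina3h highest at 1.48 and 1.87. The axes use different mice but share the high-fat slides and the scan days.

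The sham and UNX diet comparisons share no kidney. They do share the high-fat slides, the 2 scan days and 1 fit, so they are not independent of each other. In both, diet and scan day cannot be told apart. Of the members, 27 were called in both, 11 higher, 16 lower and 0 in opposite directions, which is 61.4% of the sham calls and 47.4% of the calls in mice with 1 kidney (63.6% and 62.2% over the 1421 features of the whole array called in both). A further 17 were called in sham mice and not in UNX mice and 30 the other way round. No member passed the test of the difference between the diet effects, so these counts do not show that a member responded in one surgery group alone. Over all members, called or not, the diets did not overlap for 95 (25.1%) in sham mice and 85 (22.4%) in UNX mice, beside 26.2% and 22.5% of all features. Over both surgeries, 32 members (8.44%) had all 7 high-fat kidneys on one side of all 8 low-fat kidneys, beside 9.23% of all features.

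Among members higher on the high-fat diet, Serpina3h gave log2 signals of -4.08, -4.48, -4.25 and -4.70 in LFD sham, -4.63, -4.47, -4.13 and -4.19 in LFD UNX, -3.12, -2.63 and -2.94 in HFD sham, and -3.20, -3.07, -1.79 and -1.87 in HFD UNX. All high-fat kidneys lay above all low-fat kidneys, and the 2 highest were the UNX kidneys on slide 2. The difference was 1.48 ± 0.31 (SE; 2.79-fold, adjusted p = 0.00953, limma) in sham mice and 1.87 ± 0.29 (3.66-fold, adjusted p = 0.00168) in mice with 1 kidney. Under normexp the differences were 0.70 (adjusted p = 0.585) and 1.06 (adjusted p = 0.260). Serpina3h also differed between the high-fat slides (slide 1 minus slide 2, -0.92, adjusted p = 0.00611), and as a pseudogene in a family of close copies its probe may read related Serpina3 messenger RNAs.

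Gm12298 was at -3.06, -3.08, -3.30 and -2.95 in LFD sham, -2.78, -3.14, -3.16 and -2.81 in LFD UNX, -1.86, -1.88 and -2.40 in HFD sham and -1.42, -1.63, -1.80 and -2.03 in HFD UNX. The diets did not overlap. The difference was 1.05 ± 0.18 (adjusted p = 0.00331, limma) in sham mice and 1.25 ± 0.17 (adjusted p = 0.000696) in UNX mice. Under normexp the sham difference was 0.62 (adjusted p = 0.359) and the UNX difference 0.90 (adjusted p = 0.123). Gm3219, a transcribed pseudogene and the member still called with slide as a random block (UNX, adjusted p = 0.0410), was tight on the low-fat diet, at -2.06 to -1.93 in sham and -1.98 to -1.79 in UNX kidneys. On the high-fat diet it was at -1.20, -1.27 and -1.41 in sham and -0.88, -0.64, -0.80 and -1.15 in UNX kidneys. It rose by 0.72 ± 0.13 (adjusted p = 0.00359) and by 1.03 ± 0.12 (adjusted p = 0.000249), with differences of 0.48 (adjusted p = 0.209) and 0.85 (adjusted p = 0.0237) under normexp.

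BC018473, an lncRNA, rose 2.42-fold in sham mice (1.27 ± 0.18, adjusted p = 0.00193, limma) and by 0.98 in UNX mice (adjusted p = 0.0028). Under normexp these became 0.39 (adjusted p = 0.858) and 0.54 (adjusted p = 0.693). Its high-fat kidneys, at -3.63 to -2.78, all lay above the low-fat ones, at -4.51 to -3.79. Nron, the lncRNA that holds the transcription factor NFAT in the cytoplasm, was at -3.92, -3.58, -3.52 and -3.69 in LFD sham, -3.57, -3.63, -3.29 and -3.48 in LFD UNX, -2.75, -2.69 and -3.42 in HFD sham and -2.57, -2.39, -2.85 and -2.19 in HFD UNX. HFD sham replicate 3 was the lowest high-fat kidney and fell among the LFD UNX values. Nron was higher by 0.72 in sham mice (adjusted p = 0.0265) and by 0.99 in UNX mice (adjusted p = 0.00365), and under normexp the differences were 0.26 (adjusted p = 0.905) and 0.56 (adjusted p = 0.594). 4933405E24Rik rose by 1.10 and 0.98 (adjusted p = 0.0263 and 0.0289), from 0.50 to 1.00 on the low-fat diet to 1.21 to 2.74 on the high-fat diet. Its sham call ended without LFD sham replicate 1, 2 or 4 or HFD sham replicate 2 (adjusted p up to 0.113), and it differed between the high-fat slides by -0.74 (slide 1 minus slide 2, adjusted p = 0.0275). Under normexp 4933405E24Rik was called in neither surgery group.

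**Figure D3:**
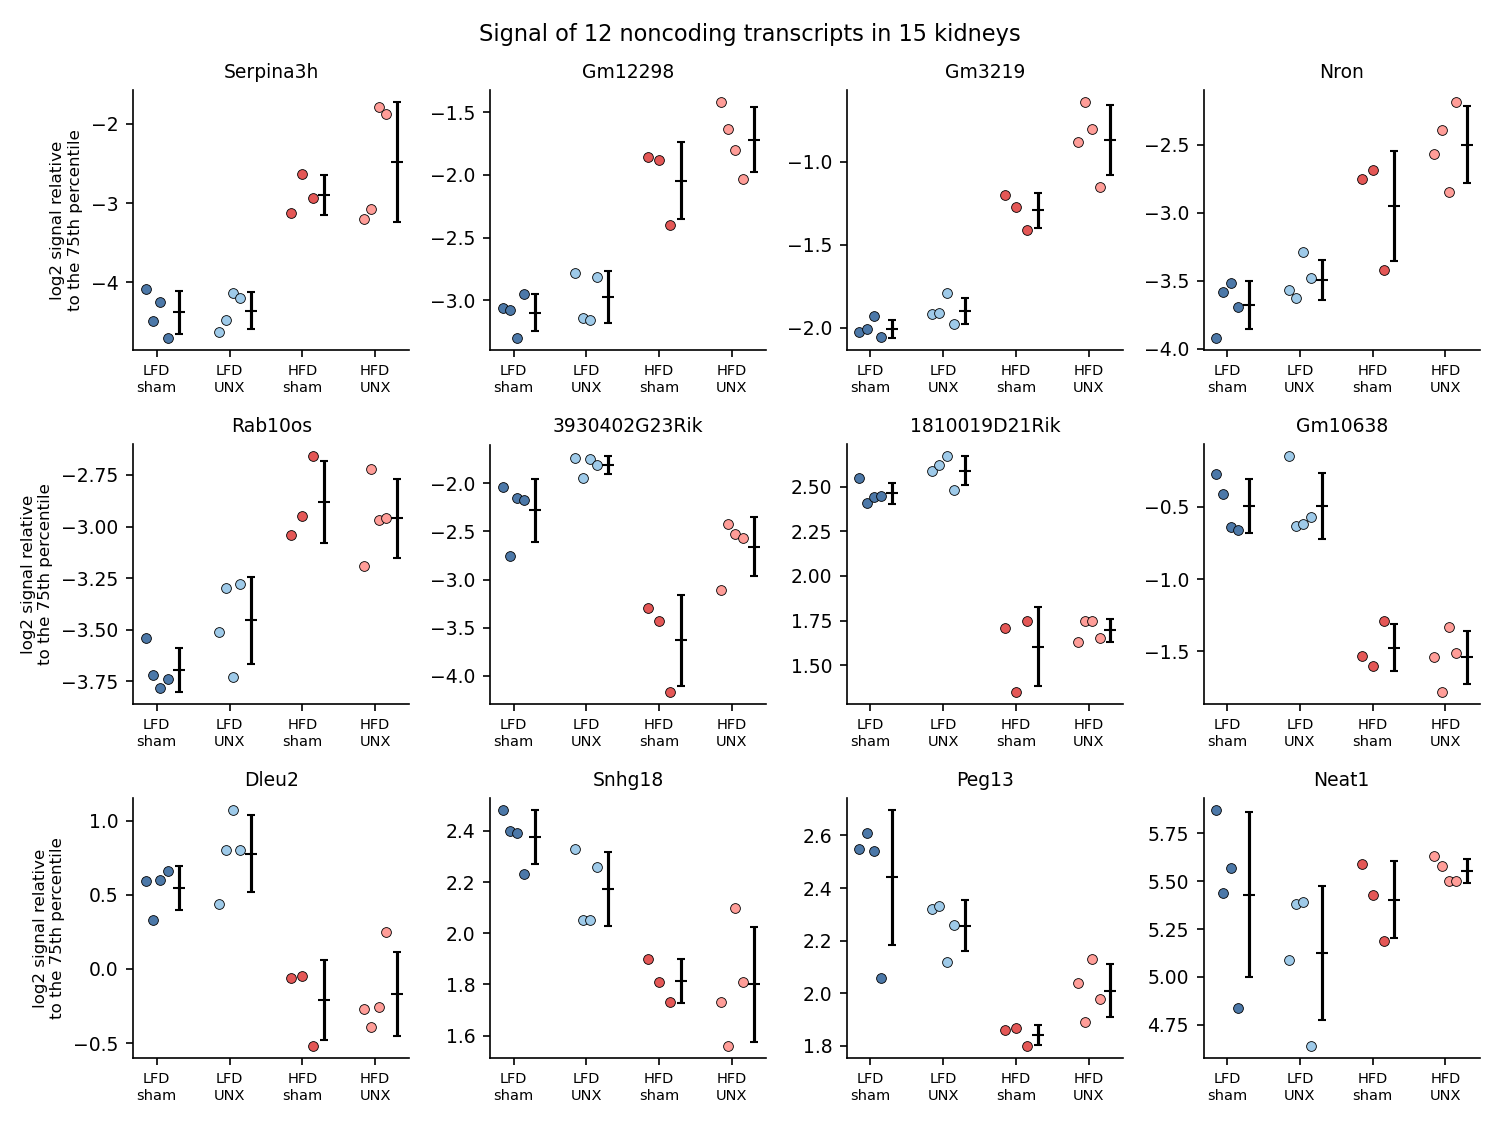
Each panel plots 1 member: points are single kidneys (log2 signal relative to the 75th percentile; LFD blue, HFD red, UNX paler), with the group mean and 1 SD beside them. Serpina3h, Gm12298, Gm3219, Nron and Rab10os are higher and 3930402G23Rik, 1810019D21Rik, Gm10638 and Dleu2 lower on the high-fat diet in both surgery groups, while Neat1 differs by -0.03 and 0.43 with neither past the threshold.

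Among members lower on the high-fat diet, 3930402G23Rik was at -2.04, -2.76, -2.15 and -2.17 in LFD sham, -1.74, -1.94, -1.75 and -1.81 in LFD UNX, -3.30, -3.43 and -4.17 in HFD sham and -3.11, -2.42, -2.53 and -2.57 in HFD UNX. It was 2.55-fold lower in sham mice (-1.35 ± 0.23, adjusted p = 0.00318, limma) and lower by -0.85 ± 0.21 in UNX mice (adjusted p = 0.0178; 0.0534 without HFD UNX replicate 1). Every high-fat kidney was below every low-fat kidney of the same surgery. Under normexp 3930402G23Rik was called in neither surgery group. 1810019D21Rik, an lncRNA, lay at 2.41 to 2.55 in LFD sham, 2.48 to 2.67 in LFD UNX, 1.35 to 1.75 in HFD sham and 1.63 to 1.75 in HFD UNX, and fell by -0.86 ± 0.12 (adjusted p = 0.00139) and -0.89 ± 0.11 (adjusted p = 0.000393).

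Gm10638 fell by -0.97 in sham mice (adjusted p = 0.00287, limma) and by -1.05 in UNX mice (adjusted p = 0.000957). Its 8 low-fat kidneys lay between -0.66 and -0.15 and its 7 high-fat kidneys between -1.78 and -1.29, with no overlap. 6820431F20Rik, a transcribed pseudogene, fell by -1.14 and -0.83 (adjusted p = 0.00254 and 0.00607), from 0.84 to 1.27 down to -0.37 to 0.52. These 2 and 1810019D21Rik kept their calls under the normexp correction in both surgery groups. Znf41-ps fell by -1.10 in UNX mice (adjusted p = 0.00239) and by -0.83 in sham mice (adjusted p = 0.0153), and under normexp was called in neither.

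**Figure D4:**
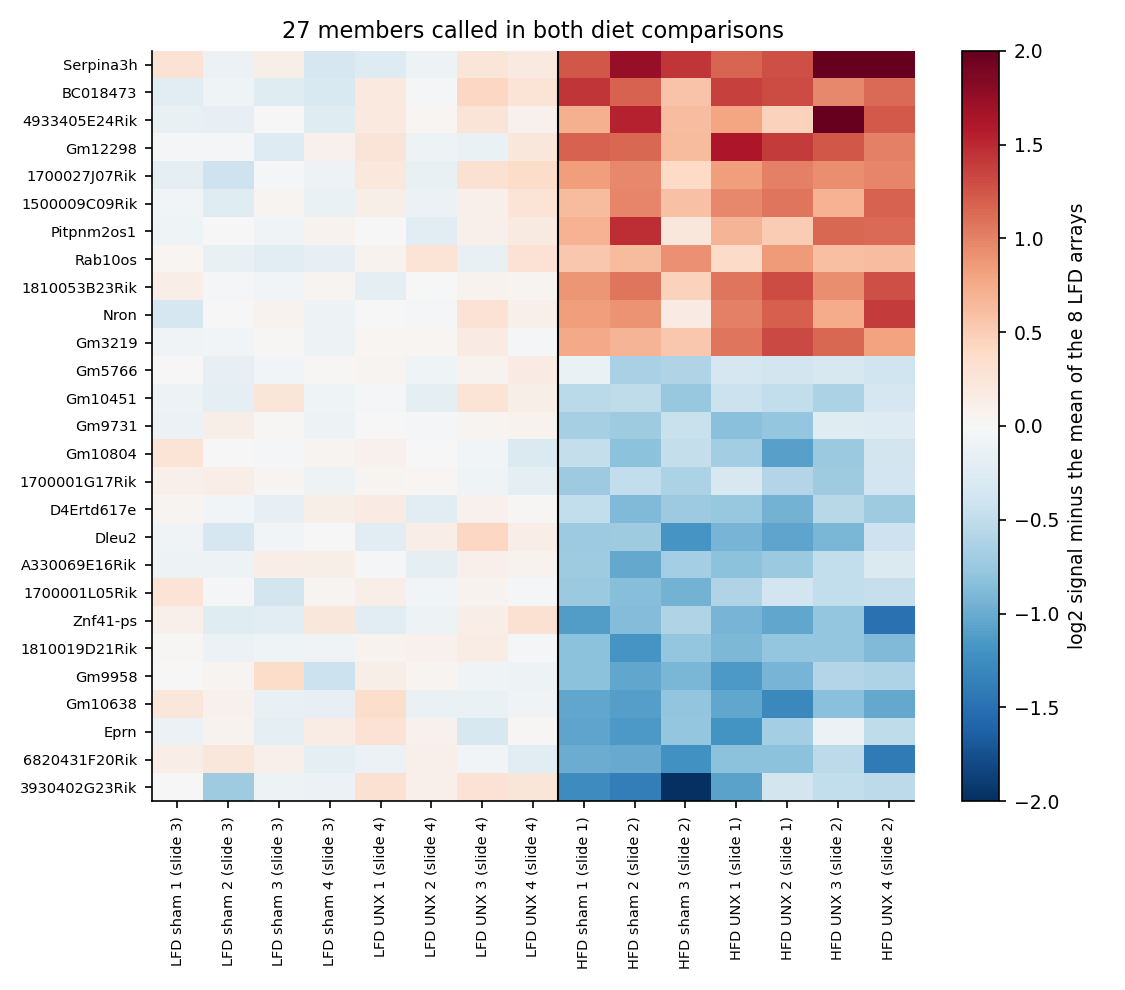
Rows are the 27 members called in both diet comparisons and columns the 15 kidneys with their slide; colour gives each kidney's log2 signal minus the member's mean over the 8 low-fat kidneys, from -2 (blue) to 2 (red), with a line between the diets. The 11 upper members are red across the 7 high-fat kidneys and the 16 lower ones blue, with 3930402G23Rik deepest in HFD sham replicate 3; the members were picked by this difference.

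Called members occurred at all levels of signal, but higher calls were most frequent among the dimmest members. Cut into 3 groups by mean signal, the dimmest 127 had 7 higher and 4 lower calls in sham mice. The middle 126 had 3 higher and 12 lower, and the brightest 126 had 2 higher and 16 lower. In UNX mice the counts were 15 and 10 for the dimmest, 7 and 8 for the middle and 7 and 10 for the brightest. The part of low signal in these calls was not tested. Of the lncRNAs, 10 were called higher and 23 lower in sham mice, and 20 and 19 in UNX mice, which is 13.7% and 16.2% of them, beside 13.9% and 14.2% of all features. Of the transcribed pseudogenes, 2 and 7 were called in sham mice and 7 and 7 in UNX mice. Among the pseudogenes with the highest signals, Gm8709 was at 6.42 to 6.73 on the low-fat diet and 6.67 to 7.86 on the high-fat diet, with an overlap through HFD sham replicate 3, and was called in UNX mice (0.76, adjusted p = 0.0403, limma). It differed about as much between the high-fat slides (slide 1 minus slide 2, 0.74, adjusted p = 0.00346), and without HFD sham replicate 3 it was called in sham mice too (0.99, adjusted p = 0.0155). Gm5766 fell in both, by -0.42 (adjusted p = 0.0476) and -0.41 (adjusted p = 0.0369), the first with an adjusted p of 0.115 without HFD sham replicate 3. Where a called member had a further NR_ probe that satisfied the rule, that probe had the same sign in 3 of 4 cases in sham mice and 7 of 8 in UNX mice, beside 44 of 56 and 29 of 52 for members not called.

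Host genes of snoRNAs make transcripts whose introns release the guide RNAs for ribosomal RNA modification. Of a fixed list of them, 11 were on the array and 10 were members. Snhg10 is on the list by name, and its span held 0 snoRNA genes. In sham mice 8 of the 10 differences were below 0 and 2 were called, both lower (Snhg18 and Dancr), with a median of -0.24, beside 13.9% of all features called; in UNX mice none of the 10 was called (1 at an unadjusted p under 0.05, limma) and the median was -0.02. Snhg18 was at 2.48, 2.40, 2.39 and 2.23 in LFD sham, 2.33, 2.05, 2.05 and 2.26 in LFD UNX, 1.90, 1.81 and 1.73 in HFD sham and 1.73, 1.56, 2.10 and 1.81 in HFD UNX. The sham groups did not overlap (-0.56 ± 0.14, adjusted p = 0.0172, limma) and the UNX groups overlapped (-0.38, adjusted p = 0.0618). Dancr, which carries Snora26, differed by -0.76 in sham mice (adjusted p = 0.0486) and by -0.42 in UNX mice (adjusted p = 0.223); without HFD sham replicate 3 its sham value was -0.66 (adjusted p = 0.116) and the list's median -0.10. Other called members whose span holds a snoRNA gene went in both directions, and those named here were picked after their values were seen. 2410006H16Rik (Snord49a, Snord49b and Snord65) fell by -0.71 in sham mice (adjusted p = 0.0240, limma). Without HFD sham replicate 3 it fell by -0.61 (adjusted p = 0.0646). In UNX mice 9330159M07Rik rose by 0.68 (adjusted p = 0.0242) and 9430037G07Rik fell by -0.96 (adjusted p = 0.0454).

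Proteins that bind snoRNAs were taken from a fixed list of 16. In sham mice 11 of the 16 were lower on the high-fat diet and 5 higher, and 3 were called, all lower, beside 13.9% of all features: Nop10 by -0.65 (adjusted p = 0.0116, limma), Nop56 by -0.82 (adjusted p = 0.0195) and Ruvbl1, which helps assemble the particle, by -0.46 (adjusted p = 0.0224). In UNX mice 4 were called, all lower, the fourth being Snu13 (-0.51, adjusted p = 0.0423), beside 14.2% of all features. The medians of the 16 were -0.30 and -0.25 (all features, -0.02 and -0.01). Both RNase MRP's RNA, Rmrp, and the 11 proteins of RNase P and MRP had 0 calls in either diet comparison (limma; 3 of the 11 proteins at an unadjusted p under 0.05 in each).

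Of a fixed list of nuclear and X-linked lncRNAs, 13 were on the array and 10 were members. None of the 10 was called in either diet comparison (limma, 2 and 0 at an unadjusted p under 0.05), with medians of -0.14 and -0.07. Of all features 13.9% and 14.2% were called. Neat1 was at 5.87, 5.44, 5.57 and 4.84 in LFD sham, 5.09, 5.38, 5.39 and 4.64 in LFD UNX, 5.59, 5.43 and 5.19 in HFD sham and 5.63, 5.58, 5.50 and 5.50 in HFD UNX. Replicate 4 was the lowest kidney of each low-fat group. The differences were -0.03 in sham mice (adjusted p = 0.947, limma) and 0.43 in UNX mice (adjusted p = 0.183). Malat1, the neighbour of Neat1 that is enriched in nuclear speckles, differed by -0.61 (adjusted p = 0.120) and -0.44 (adjusted p = 0.224), and fell in sham mice by -0.85 without HFD sham replicate 3 (adjusted p = 0.0435). Among proteins of the paraspeckle, Pspc1 was called higher in UNX mice (0.64, adjusted p = 0.0261) and Sfpq lower in both comparisons (-0.92, adjusted p = 0.00537, and -0.77, adjusted p = 0.00767).

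Imprinted noncoding RNAs are expressed from 1 parental allele. Of a fixed list of them, 6 were on the array and 4 were members (Airn, Kcnq1ot1, Meg3 and Peg13). All 4 differences were below 0 in both diet comparisons, with medians of -0.45 and -0.25. In sham mice 1 was called, beside 13.9% of all features. Dio3os, a member named for Dio3 and not on the list, differed by 0.18 and 0.30 (adjusted p = 0.735 and 0.515, limma). Peg13 was at 2.55, 2.61, 2.54 and 2.06 in LFD sham and 1.86, 1.87 and 1.80 in HFD sham (-0.59 ± 0.14, adjusted p = 0.0132, limma). In UNX mice it was at 2.32, 2.33, 2.12 and 2.26 on the low-fat diet and 2.04, 1.89, 2.13 and 1.98 on the high-fat diet (-0.25, adjusted p = 0.212). Meg3 ranged from -3.74 to -2.23 on the low-fat diet and -4.30 to -3.12 on the high-fat diet and was not called. Of 17 measured imprinted coding genes, Magel2 rose in both (1.68, adjusted p = 0.0215, and 2.04, adjusted p = 0.00513) and Dio3, the thyroid hormone inactivating deiodinase, rose in UNX mice (1.504, adjusted p = 0.0102); their probes were above background on 6 and 9 of the 15 arrays, so these sizes are uncertain.

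A list of microRNA hosts and transcripts with a Mir name gave 6 members of 10, with medians of 0.11 and 0.13 (0.21 in sham mice without HFD sham replicate 3). Mirt1 and Mirt2 are on it by name, as transcripts associated with myocardial infarction, and neither was among the 7 members whose span held a hairpin. The 1 call on the list was Mirt2, in UNX mice (0.50, adjusted p = 0.0404, limma), with LFD UNX at -0.20, 0.29, -0.18 and -0.13 and HFD UNX at 0.23, 0.48, 0.42 and 0.64. The groups overlapped through LFD UNX replicate 2. Over all features 13.9% were called in sham mice and 14.2% in UNX mice. Mir22hg, the host of miR-22 shown above, ranged from -0.53 to 0.45 on the low-fat diet and from -0.91 to 1.71 on the high-fat diet. On the high-fat diet slide 1 exceeded slide 2 by 1.56 (adjusted p = 0.00412), and neither diet difference (0.45 and 0.54) was called.

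Dleu2, the host of miR-16 and not on that list, was at 0.59, 0.33, 0.60 and 0.66 in LFD sham, 0.44, 0.80, 1.07 and 0.80 in LFD UNX, -0.06, -0.05 and -0.52 in HFD sham and -0.27, -0.39, -0.26 and 0.25 in HFD UNX. Every high-fat kidney was below every low-fat kidney. It fell by -0.75 ± 0.19 in sham mice (adjusted p = 0.0189, limma; -0.60 and 0.0576 without HFD sham replicate 3) and by -0.94 ± 0.17 in UNX mice (adjusted p = 0.00385). Under normexp Dleu2 was called in UNX mice (-0.83, adjusted p = 0.0337, limma) and not in sham mice. Mature miR-16 was not measured on these arrays. D7Ertd143e, the host of the miR-294 and miR-295 cluster, differed by -0.67 (adjusted p = 0.147) and -0.23 (adjusted p = 0.626).

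Of a fixed list of small RNAs that work in a cellular machine, 6 were on the array and 5 were members. The list does not hold Rnu1b6 and Rnu3b1, which are also members. Of the 5, 0 were called (limma, 0 at an unadjusted p under 0.05), beside 13.9% and 14.2% of all features. The medians were -0.05 in sham and 0.38 in UNX mice. Without HFD sham replicate 3 the sham median was 0.13 and Rmrp was called higher (1.31, adjusted p = 0.0301). Their values were scattered in HFD sham: Rmrp was at -0.94, 0.51 and -2.73 and Rnu2-10, a U2 spliceosomal RNA, at 0.27, 0.59 and -2.65, the lowest being replicate 3 each time. Rnu12, the U12 RNA of the minor spliceosome, differed between the high-fat slides by -0.78 (adjusted p = 0.00074, limma).

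A fixed list of antisense or neighbouring transcripts of kidney developmental genes gave 5 members of 8. Their median diet differences were -0.39 and -0.35. In sham mice 0 of the 5 were called (limma, 4 at an unadjusted p under 0.05), beside 13.9% of all features. In UNX mice 1 was called (1 at an unadjusted p under 0.05), beside 14.2% of all features. Emx2os, transcribed beside the homeobox gene Emx2 that the ureteric bud needs, was at -3.56, -4.16, -3.72 and -3.85 in LFD UNX and -4.66, -4.72, -4.56 and -4.49 in HFD UNX (-0.79 ± 0.14, adjusted p = 0.00319, limma). In sham mice the difference was -0.39 (adjusted p = 0.0996), and under normexp the UNX difference was -0.27 (adjusted p = 0.956). Hnf4aos, beside the proximal tubule regulator Hnf4a, differed by -0.40 (adjusted p = 0.163) and 0.04 (adjusted p = 0.907).

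For 19 members named as the opposite-strand transcript of a measured gene, the member and the gene had the same sign in 9 pairs in sham mice and 7 in UNX mice. Called members were Pitpnm2os1, Rab10os, Sp3os and Stk35os1 in sham mice and Emx2os, Pitpnm2os1 and Rab10os in UNX mice. In none of the 19 pairs was the gene called too. With 4 and 3 members called and 2 and 3 genes, joint calls would be rare in any case, so this carries no conclusion. Stk35os1 lost its call without HFD sham replicate 3 (adjusted p = 0.0845, limma). Rab10os was at -3.78 to -3.54 in LFD sham and -3.04, -2.95 and -2.66 in HFD sham (0.81, adjusted p = 0.00468, limma; 0.29 and 0.879 under normexp). Rab10, a GTPase of vesicle traffic to the cell surface, differed by 0.33 (adjusted p = 0.113). Sp3os was at 1.24 to 1.33 in LFD sham and 0.65, 0.44 and 0.24 in HFD sham (-0.84, adjusted p = 0.00359), while Sp3, whose probe was above background on 9 arrays, differed by 0.09 (adjusted p = 0.966). In the other direction, Arhgap33 (1.48, adjusted p = 0.0266) and Atad3a (-0.62, adjusted p = 0.0107) were called in sham mice without Arhgap33os (-0.51) and Atad3aos (0.37).

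A position beside a coding gene was common. Of the 208 with a promoter and strand record, 66 (31.7%) started within 1000 bases of a protein-coding start on the opposite strand, against 65 of 433 other NR_ genes (15.01%). A span overlapping a coding gene on the other strand was about as common in both, at 31.7% and 27.7%. A snoRNA gene lay within the span of 13 members (6.25%) and 1.39% of the others. Of 62 head-to-head pairs with both genes measured, the diet difference had the same sign in 34 pairs in sham mice and 31 in UNX mice. The 208 and the 62 pairs include members now classed as protein-coding, among them Ccl25 (beside Elavl1) and Zfp672 (beside Sh3bp5l). Members were called in 5 and 3 of these pairs and the coding genes in 11 and 12, beside 13.9% and 14.2% of all features. With so few calls, joint calls would be rare in any case, so their number carries no conclusion about the pairs. In 0 pairs were both called in the same direction, and in 1 pair, picked after its values were seen, they were called in opposite directions in UNX mice: 1700027A15Rik (1.05, adjusted p = 0.0141, limma) and Tnp1, a sperm chromatin protein (-0.79, adjusted p = 0.0214).

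Member promoters were closer in base composition to those of coding genes than to those of other NR_ genes. The 208 members with a promoter record include genes now classed as protein-coding, such as Bcor and Prmt6, and were not split by class. Over 300 bases (250 before to 50 from the start, RefSeq GRCm38.p6), the median GC content was 56.8% for members, 50.7% for other NR_ genes and 57.3% for coding genes, and the median number of CpG dinucleotides was 15, 5 and 15. The GC box GGGCGG, searched on both strands, was in 50% of member promoters, 27.02% of those of other NR_ genes and 38.2% of all 27025. CCAAT was in 41.8%, 39.0% and 41.1%, TATAAA in 14.4%, 12.9% and 15.7%, TGANTCA in 7.21%, 11.1% and 8.97%, and CCGGAAG in 11.5%, 6.24% and 9.93%. The E-box CACGTG was in 21 of 208 member promoters (10.1%), in 8.09% of all, and in 9 of the 42 that were called in either diet comparison (21.4%; 74 were called, and 42 of them have a promoter record). It was singled out after these shares were seen and carries no test.

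The promoters of 3 called members that hold the E-box are shown because they include both directions of change: Rab10os (higher on the high-fat diet) at chr12:3235541-3235840 (plus strand), and Dleu2 and 1700001L05Rik (lower) at chr14:61682324-61682623 and chr15:83367248-83367547 (minus strand). They are from RefSeq GRCm38.p6, 5′ to 3′ along the gene, with CACGTG in capitals. The E-box starts at -28 in Rab10os, -178 in Dleu2 and -190 and -144 in 1700001L05Rik, counted from the annotated start. 1700001L05Rik fell by -0.83 in sham mice (adjusted p = 0.00331, limma) and by -0.51 in UNX mice (adjusted p = 0.0200).
Rab10os: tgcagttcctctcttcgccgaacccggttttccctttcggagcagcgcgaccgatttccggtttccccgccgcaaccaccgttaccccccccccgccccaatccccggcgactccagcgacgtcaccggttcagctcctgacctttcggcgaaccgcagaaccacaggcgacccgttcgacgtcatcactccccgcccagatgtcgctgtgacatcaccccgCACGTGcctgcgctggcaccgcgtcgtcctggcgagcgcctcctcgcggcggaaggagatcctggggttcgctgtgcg
Dleu2: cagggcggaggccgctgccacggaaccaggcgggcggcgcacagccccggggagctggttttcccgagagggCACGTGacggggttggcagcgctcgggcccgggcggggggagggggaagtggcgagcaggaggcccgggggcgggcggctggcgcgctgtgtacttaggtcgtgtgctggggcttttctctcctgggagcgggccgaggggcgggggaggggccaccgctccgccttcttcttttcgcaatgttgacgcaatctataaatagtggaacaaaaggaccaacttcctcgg
1700001L05Rik: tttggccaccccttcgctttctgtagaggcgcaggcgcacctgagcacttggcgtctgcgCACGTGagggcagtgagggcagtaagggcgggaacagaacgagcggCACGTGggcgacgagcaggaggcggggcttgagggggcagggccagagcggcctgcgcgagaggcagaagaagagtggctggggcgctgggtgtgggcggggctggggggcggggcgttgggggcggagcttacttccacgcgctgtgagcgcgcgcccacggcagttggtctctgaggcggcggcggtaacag

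Uninephrectomy was called for none of the 379 members on either diet. On the low-fat diet 14 members had an unadjusted p under 0.05 (limma), 0 an adjusted one, and 0.00621% of all features were called. The lowest p-values among higher members belonged to 2900052N01Rik, NR_028584 and Gm6936. NR_028584 was at -0.69, -1.35, -1.18 and -1.41 in LFD sham and -0.01, -0.53, -0.36 and 0.17 in LFD UNX, with no overlap (0.98, 95% interval 0.30 to 1.65, adjusted p = 1.00). 2900052N01Rik was at -4.97 to -4.35 in LFD sham and -4.11 to -3.89 in LFD UNX (0.69, 95% interval 0.24 to 1.14). Among lower members they belonged to 1110046J04Rik (-0.35), NR_027905 (-0.45) and Gm15401 (-0.33). The median over members was -0.02, beside 0.01 over all features.

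On the high-fat diet 26 members had an unadjusted p under 0.05 and 0 an adjusted one (limma; 0% of all features called, lowest adjusted p among members 0.723). That lowest p was for 3930402G23Rik, which was higher after uninephrectomy by 0.98 (95% interval 0.49 to 1.47), its HFD sham kidneys at -4.17 to -3.30 and its HFD UNX kidneys at -3.11 to -2.42. Gm3219 differed by 0.42 (95% interval 0.16 to 0.69) and C920006O11Rik by 0.51 (0.18 to 0.85). AA388235 differed by -0.49, Rreb1 by -0.90 and 6330549D23Rik by -0.39. The intervals leave room for differences of that size, and the design did not resolve them after adjustment. Rreb1 is classed as protein-coding and also differed between the high-fat slides (slide 1 minus slide 2, -0.77, adjusted p = 0.0401, limma). Its NR_ probe differed between diets by 0.31 in sham and -0.49 in UNX mice. The NM_ probe of Rreb1 differed by -0.26 and -0.17.

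The members' median difference after uninephrectomy on the high-fat diet was 0.09, beside 0.02 over all features. It was -0.03 within slide 1 and 0.21 within slide 2, and 0.02 without HFD sham replicate 3. Restricted to slide 2, a setting chosen after seeing the data, 10 members were called higher. The share of all features called in that setting is not given here, so the count cannot be set against it. That slide holds HFD sham replicate 3, whose low values are described above.

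**Figure D5:**
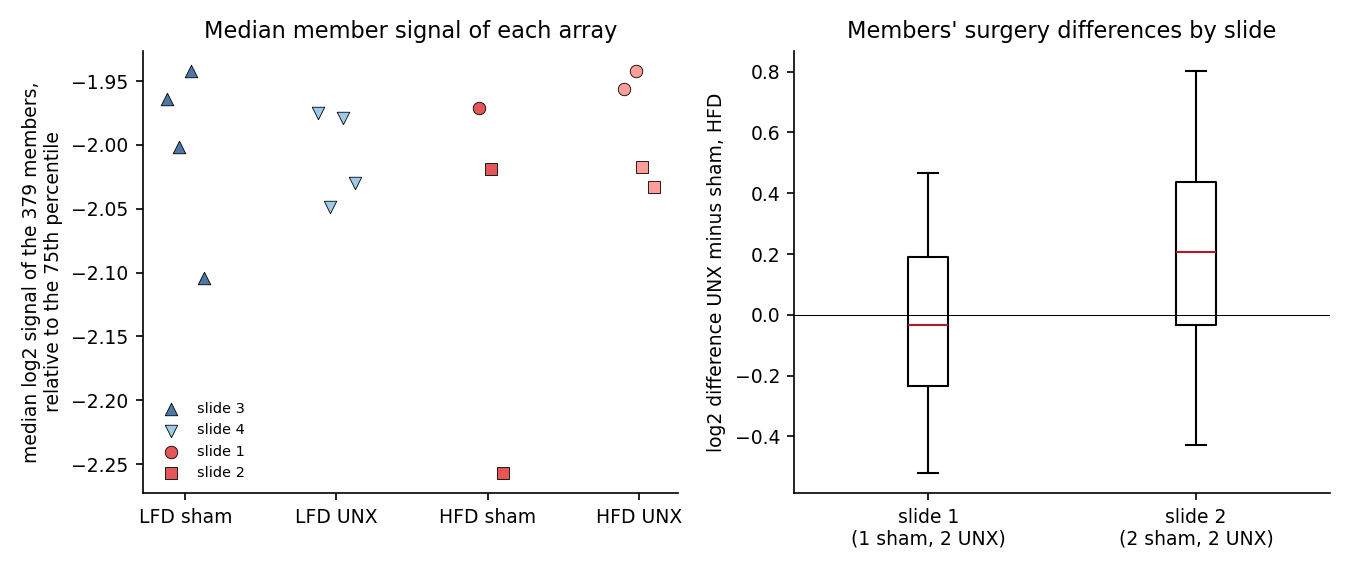
Left, each point is the median log2 signal of the 379 members on 1 array, by group, with the marker giving the slide; HFD sham replicate 3 lies at -2.26 and the other 14 between -2.10 and -1.94. Right, boxes (median and quartiles, whiskers to the 5th and 95th percentile) of the members' log2 difference between UNX and sham on the high-fat diet within slide 1 (median -0.03) and slide 2 (median 0.21).

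The interaction asks whether the diet difference depended on the surgery. It was called for 0 members (9 with an unadjusted p under 0.05, limma) and for 0% of all features. The lowest p-values in one direction were for C920006O11Rik (0.54, 95% interval 0.09 to 0.99), Sp3os (0.50, 0.07 to 0.93) and Gm15401 (0.61). In the other they were for NR_028086 (-0.81), Emx2os (-0.40) and Rreb1 (-0.80), which is classed as protein-coding. The median over members was 0.10, beside 0.02 over all features, and 0.03 without HFD sham replicate 3.

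More members were called between the high-fat slides than between surgeries. Between slide 1 and slide 2, 92 members were called (24.3%, 46 in each direction), beside 31% of all features. They included Norad, an lncRNA that binds Pumilio proteins, at 0.74 (adjusted p = 0.000673, limma), and Snhg12 at -0.65 (adjusted p = 0.0120). Of the 44 and 57 members called between diets, 3 and 11 also differed between the slides.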

How the data were processed

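Total RNA of 15 frozen kidneys, 1 per mouse, was amplified, Cy3-labelled and read on Agilent arrays of 1 colour. Per the file headers and the submitters' processing notes, Agilent Feature Extraction (10.7.3.1 and 10.7) made the deposited processed intensity, already background-corrected. No spot was saturated. Of 39429 non-control probes, 27234 carried a name. From it, log2 intensity minus each array's 75th percentile was computed, outlier spots left out. Members were selected on their own signal, and members and lists were chosen with earlier results of these data known. Probes above background on at least 3 arrays (16109 features, the brightest probe per gene) were fitted with limma 3.58.1 in R 4.3.3 over all 15 arrays (adjusted p under 0.05); the script was tested on simulated data. The number of arrays limits the precision.

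Named genes were, per comparison, up to 8 called members in each direction by size of difference (where fewer than 3 were called, the 3 lowest p-values), the 15 brightest members, the list members, called partner genes and opposite-strand pairs. 1 item of the partner lists is not reported here. Alternatives were quantile scaling, normexp (offset 50, on the median signal, since the files used hold no mean signal), the deposited value table (processed intensity to within 0.995 to 1.005-fold, per the file), filters, all probes averaged, slide as a block, replicate block and each array left out. Samples with the same number deviated together in HFD sham and HFD UNX (correlations 0.44, 0.12 and 0.33), where numbers partly coincide with slides, and in no other comparison; the labels call them separate mice.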

Additional observations from a re-analysis of the deposited data

Results flagged for a closer look

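In 8 of 261 groups of 4 kidneys tested over the named members, 1 kidney stood apart from the other 3 by Dixon's test, where chance alone does this in about 1 group in 20. Gm10638 was at -0.15 in LFD UNX replicate 1 (the others -0.63 to -0.57), and Gm5475 at -3.06 in LFD sham replicate 1 (-3.86 to -3.77). In LFD UNX replicate 2, 2900052N01Rik was at -4.11 (-3.93 to -3.89), Mirt2 at 0.29 (-0.20 to -0.13) and Snhg3 at 1.06 (1.14 to 1.15). NR_027905 was at -1.80 in LFD UNX replicate 4 (-1.58 to -1.55), NR_028584 at -0.43 in HFD UNX replicate 3 (-1.33 to -1.22) and Peg13 at 2.06 in LFD sham replicate 4 (2.54 to 2.61). HFD sham, with 3 kidneys, was too small for this test.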

How the results depend on the processing

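The counts of members called between diets moved with the background correction and with slide as a random block, and the cause was not tested. In sham mice, 44 became 5 under normexp (median -0.21), 0 with slide as a random block, 29 with only the groups compared in the fit, 88 within slide 1 (44 higher, 44 lower; median -0.012) and 83 within slide 2 (23 higher, 60 lower). In UNX mice, 57 became 6 under normexp, 1 with the random block and 154 within slide 1 (63 higher, 91 lower; median -0.076), and within slide 2 72 were called (49 higher, 23 lower; median 0.017). The slide-wise fits were chosen after seeing the data. Shares of all features called in them are not given here, so their counts cannot be set against such a share. Leaving out each array in turn gave 28 (without LFD sham replicate 3) to 54 calls in sham mice (medians -0.19 to -0.043). In UNX mice it gave 31 to 79, with 31, 36, 34 and 35 without LFD UNX replicates 1 to 4 and 35 without HFD UNX replicate 2. Quantile scaling gave 58 (17 higher, 41 lower) and 55. For uninephrectomy on the high-fat diet the median of 0.09 became 0.18 under normexp, -0.034 within slide 1 and 0.21 within slide 2, where 10 members were called, and 0.023 to 0.15 with 1 array left out. Under normexp 6330549D23Rik (surgery on the high-fat diet) turned to 0.11 and Emx2os (interaction) to 0.19. With the replicate block the counts were 43, 51, 0, 0 and 0 in the order of the comparisons, and 0 for surgery and interaction with the block restricted to the high-fat groups.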
